A study of Mus musculus with 22 samples.

Results

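The genes described here are 10 genes that neutrophils use to build and fill their granules, to form calprotectin and to sense the signals that call them into tissue. They were chosen by name from the 46078 genes of the count table, and all 10 were found there: S100a8 and S100a9 (calprotectin), Mpo and Elane (primary granules), Ltf, Camp and Ngp (secondary granules), Csf3r and Trem1 (surface receptors) and Retnlg (a secreted resistin relative). The choice used results of the same libraries, in which S100a9, Retnlg and Ltf had stood among the largest increases, so the values of the 10 genes by disease group are a description. Where the text says how many of them passed a limit in a group comparison, the share of all genes that did is given with the first count of that comparison, and nothing is read from the counts.

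The study compared RNA from the distal colon of Winnie mice, in which a missense change in Muc2, the gene of the main gut mucin, leads to spontaneous chronic colitis, with that of C57BL/6 mice without the mutation. The 22 libraries came from 8 C57BL/6 mice aged 14 weeks (4 males and 4 females), 7 Winnie mice aged 14 weeks (3 males and 4 females) and, at 18 weeks, 7 further Winnie mice that had developed a prolapse (4 males and 3 females), named Winnie-Prolapse below. The labels name no drug or transgene in any group. The methods of the study count fewer Winnie mice than the labels, and all labelled libraries were used here. The group with prolapse was also the older one, so prolapse and age cannot be told apart. Each library held 24817527 to 36344372 counts, so that 3 counts, taken as the smallest readable level, equalled 0.0825 to 0.121 counts per 1000000 counts (CPM) in a single library.

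Neutrophils are short-lived white cells that mature in the bone marrow and enter inflamed tissue within hours of an alarm. Their granules are filled in sequence during maturation: the messages for the primary granule proteins (myeloperoxidase, neutrophil elastase) are made first and then shut off, those for the secondary granule proteins (lactoferrin, cathelicidin, Ngp) follow, and receptors and calprotectin are made up to the mature stage. Calprotectin, the complex of S100a8 and S100a9, makes up much of the neutrophil cytosol, binds the zinc and manganese that bacteria need, and is measured in stool as a sign of intestinal inflammation. In the colon, neutrophils that cross the epithelium form the crypt abscesses of ulcerative colitis.

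The tissue was checked against its defining markers. All 9 colon epithelium markers (among them Epcam, Vil1 and Muc2) had counts, with a summed level of 13257 to 20821 CPM in C57BL/6, 8689 to 16903 CPM in Winnie and 5886 to 12427 CPM in Winnie-Prolapse. In Winnie-Prolapse, libraries 2, 4, 5, 6 and 7 also held keratins and other markers of stratified squamous epithelium, which lines the anal canal and not the colon: the 13 squamous markers summed to 377 to 3589 CPM in these 5, against 4.15 and 6.30 CPM in libraries 3 and 1, 3.97 to 61.4 CPM in Winnie and 4.72 to 6.76 CPM in C57BL/6, where Ivl was at 0 throughout. Winnie-Prolapse library 6 held milk protein transcripts at 189809 CPM, or 18.98% of its counts, against at most 59.4 CPM in any other library. Both bear on the genes below, since keratinocytes can make calprotectin and the lactating mammary gland makes lactoferrin, and the values are set beside the results they touch. These are bulk samples, in which more neutrophils and more RNA per neutrophil cannot be told apart.

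The 10 genes lie on 7 chromosomes (GRCm38). S100a8 (chr3:90668978-90670035, plus strand) and S100a9 (chr3:90692632-90695721, minus strand) are neighbours in the S100 gene cluster, with 22596 bp between them. The 3 secondary granule genes Camp (chr9:109847379-109849617, minus strand), Ngp (chr9:110419747-110423012, plus strand) and Ltf (chr9:111019271-111042767, plus strand) share chromosome 9, with gaps of 570129 and 596258 bp. Csf3r lies at chr4:126024550-126044440, Trem1 at chr17:48232768-48246924, Retnlg at chr16:48872621-48874496, Mpo at chr11:87793581-87804413 and Elane at chr10:79886247-79888215, all on the plus strand. Counts were made per gene. Trem1 and Mpo each overlap a gene on the other strand (AC241601.2 and Gm11505), and the strand setting of the counting is not given in the sources used here, so reads of such pairs may not be separated.

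The promoter of a gene from each kind of response is shown, since several of these genes were high in the same libraries and the myeloid factors C/EBP and PU.1 are known to drive granule genes. The sequence is taken from RefSeq (GRCm38.p6), reads 5′ to 3′ on the strand of the gene, and covers the part of the 150 bases before the RefSeq start that is not exonic in the annotation used. Capitals mark motif letters.
S100a9 (chr3:90695722-90695871, minus strand): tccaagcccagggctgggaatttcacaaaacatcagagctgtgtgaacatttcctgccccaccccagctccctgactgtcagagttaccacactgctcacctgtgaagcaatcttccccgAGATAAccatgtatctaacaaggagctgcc
Retnlg (chr16:48872458-48872607, plus strand): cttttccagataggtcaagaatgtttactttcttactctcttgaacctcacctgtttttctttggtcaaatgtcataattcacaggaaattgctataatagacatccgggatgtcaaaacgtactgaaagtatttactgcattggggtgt
Ltf (chr9:111019142-111019270, plus strand): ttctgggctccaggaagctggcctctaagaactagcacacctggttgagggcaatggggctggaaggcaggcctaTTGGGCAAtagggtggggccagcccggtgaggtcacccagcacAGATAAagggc
Ngp (chr9:110419658-110419746, plus strand): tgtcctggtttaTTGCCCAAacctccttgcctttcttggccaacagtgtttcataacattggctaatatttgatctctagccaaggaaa
All 10 genes had a promoter in the table, and 4 motifs were searched on both strands in the full 150 bases. The C/EBP letters TTGCNNAA were found in 2 of the 10, in Ltf at bases 75 to 68 before the start and in Ngp at bases 138 to 131 and 11 to 4, against 5.46% of all 32851 promoters. The GATA letters AGATAA were found in Ltf (bases 32 to 27) and S100a9 (bases 30 to 25), against 5.65% of promoters. The PU.1 letters GAGGAAGT were found in Elane alone (bases 85 to 78, 1.63% of promoters) and the TATA box letters TATAAA in S100a8 alone (bases 30 to 25, 7.57% of promoters). The motifs did not overlap each other in these windows. A match describes letters in the sequence and is not evidence of a bound site, and Retnlg, Trem1, Csf3r, Camp and Mpo held none of the 4 in this window. The windows of Camp and Mpo lay wholly within annotated exons of those genes, as did 109 of the 150 bases for Csf3r.

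The calprotectin genes were close to silent in healthy distal colon and abundant after prolapse. S100a8 had 1 to 16 counts in each C57BL/6 library (0.0342 to 0.617 CPM, median 0.110), 3 to 1129 counts in Winnie (0.0984 to 36.2 CPM, median 2.39) and 723 to 10774 counts in Winnie-Prolapse (21.4 to 356 CPM, median 78.9). All 7 Winnie-Prolapse libraries stood above every C57BL/6 library, and 5 of 7 Winnie libraries did. S100a9 ran from 0.0331 to 0.617 CPM in C57BL/6 (median 0.0735), from 0.135 to 38.9 CPM in Winnie (median 3.35) and from 16.7 to 532 CPM in Winnie-Prolapse (median 60.5), with 4 of 7 Winnie libraries above the highest C57BL/6 library. The highest value of both genes was in Winnie-Prolapse library 4 and the highest within Winnie was in library 2, which at 38.9 CPM of S100a9 stood above Winnie-Prolapse libraries 1 and 3. The group means were 0.204 ± 0.205 CPM (SD, n = 8), 7.84 ± 12.96 CPM (SD, n = 7) and 119 ± 116 CPM (SD, n = 7) for S100a8, and 0.166 ± 0.210, 7.28 ± 14.1 and 143 ± 182 CPM for S100a9 in the same order. In Winnie, without library 2, the mean was 3.12 ± 3.76 CPM for S100a8 and 2.012 ± 2.003 CPM for S100a9, and in Winnie-Prolapse, without library 4, that of S100a9 was 78.6 ± 67.8 CPM (SD, n = 6).

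**Figure D1:**
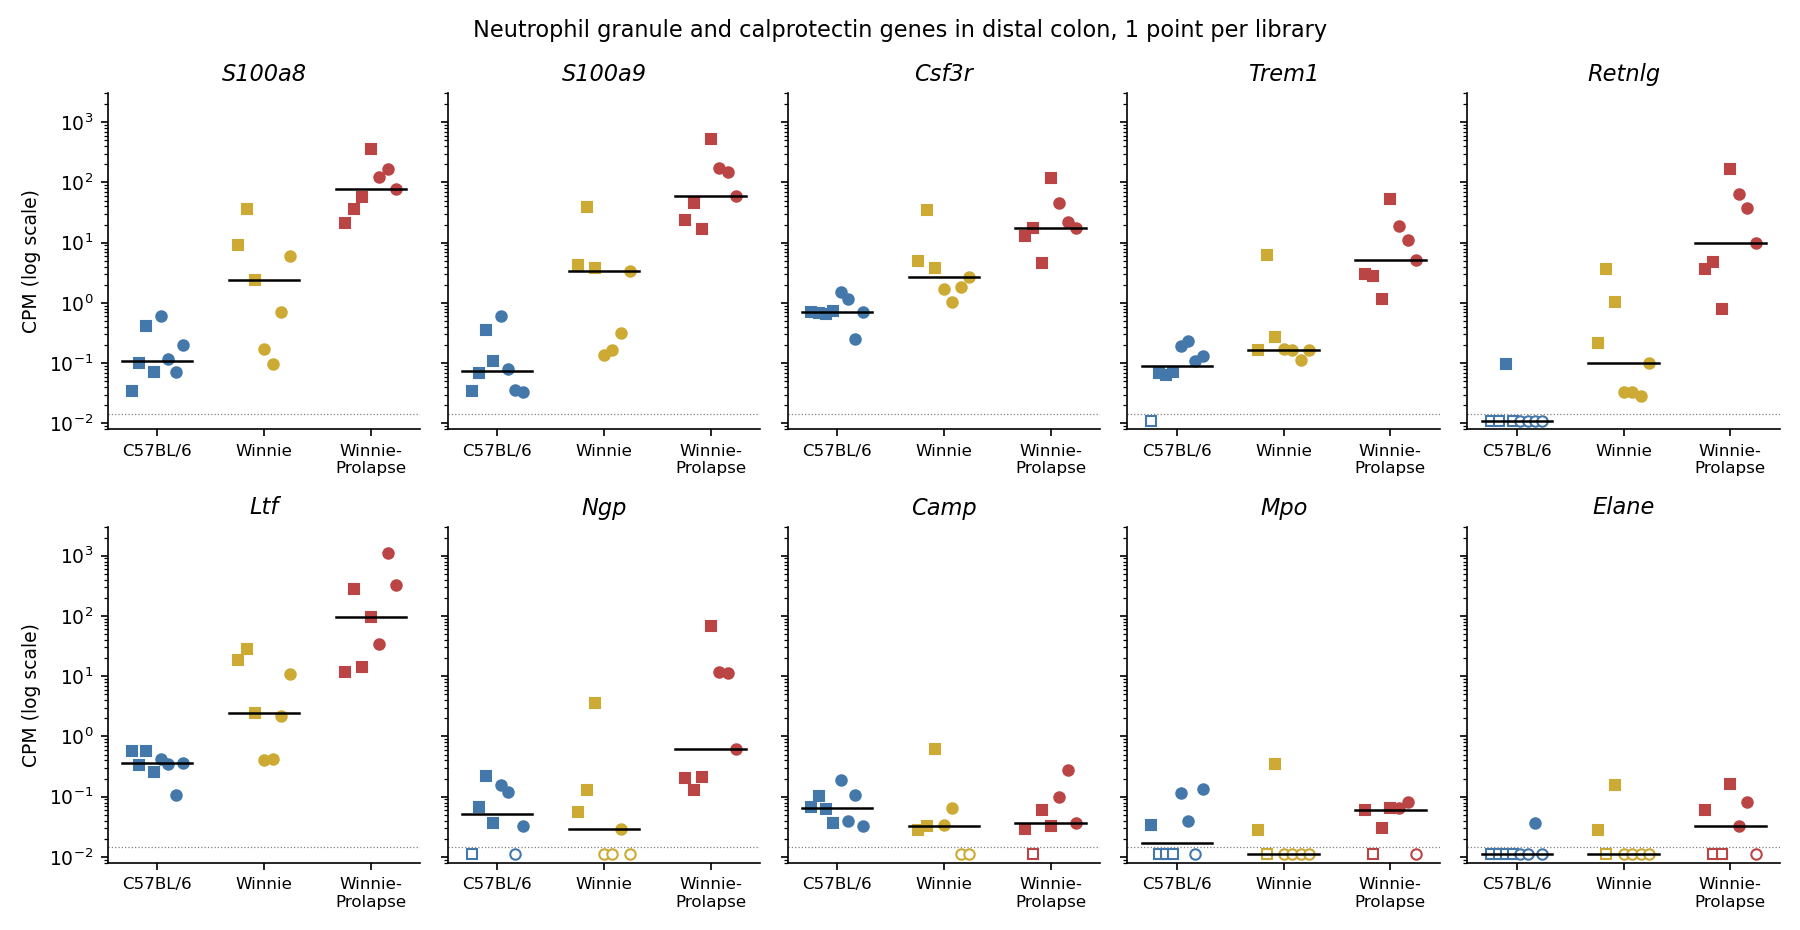
Level of each of the 10 genes in CPM (log axis) by group, with 1 point per library (squares males, circles females), hollow points below the dotted line for libraries with 0 counts, and a black line at the group median. In S100a8, S100a9, Ltf, Csf3r, Trem1 and Retnlg all 7 Winnie-Prolapse points sit above all 8 C57BL/6 points, while Camp, Mpo and Elane stay near the floor in all 3 groups.

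The balance of the calprotectin subunits differed between libraries. The ratio of S100a8 to S100a9 counts lay between 0.670 and 1.30 in 6 of 7 Winnie-Prolapse libraries and was 3.45 in library 3, which had 1905 counts of S100a8 and 552 of S100a9. In Winnie it ran from 0.6 in library 5, on 3 and 5 counts, to 2.27 in library 6, and was 0.626 in library 3. Winnie-Prolapse library 3 had the lowest sum of squamous markers of its group, 4.15 CPM. The 2 libraries of this group with low squamous markers, 1 and 3, had the lowest S100a9 levels, 23.7 and 16.7 CPM. The other 5 had 44.8 to 532 CPM. S100a8 was lowest in library 1, at 21.4 CPM. In library 3 it was 57.6 CPM, above the 35.7 CPM of library 2, where the squamous markers summed to 2944 CPM. The part of squamous tissue in the calprotectin values was not tested. S100a9 in libraries 1 and 3 was still above the highest C57BL/6 value of 0.617 CPM.

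Csf3r, the receptor for granulocyte colony-stimulating factor that drives neutrophil production and survival, was the member most readily detected in healthy colon. Its level was 0.254 to 1.504 CPM in C57BL/6 (median 0.707, mean 0.803 ± 0.377 CPM, SD, n = 8), 1.05 to 35.4 CPM in Winnie (median 2.75) and 4.54 to 120 CPM in Winnie-Prolapse (median 17.9, mean 34.5 ± 39.7 CPM, SD, n = 7, or 20.3 ± 14.0 CPM without library 4). In Winnie 6 of 7 libraries stood above the highest C57BL/6 library, more than for any other of the 10 genes, and in Winnie-Prolapse all 7 did. Trem1, a receptor that amplifies inflammatory signalling in neutrophils and monocytes, had 0 to 6 counts in each C57BL/6 library (median 0.0905 CPM). It stayed at 4 to 7 counts in 6 of 7 Winnie libraries and reached 194 counts (6.22 CPM) in Winnie library 2. In Winnie-Prolapse it had 38 to 1635 counts (1.15 to 54.0 CPM, median 5.08), above C57BL/6 in every library.

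Retnlg, a resistin-like hormone expressed in bone marrow and mature neutrophils, was the gene with the widest span between groups. Its 8 C57BL/6 libraries held 3 counts in all, each of them in library 3. In Winnie the counts were 8, 116, 27, 1, 1, 1 and 3 in libraries 1 to 7, and in Winnie-Prolapse they were 122, 146, 26, 5084, 1962, 952 and 271. Every Winnie-Prolapse library was above C57BL/6, whereas 4 of 7 Winnie libraries were. With so few counts in the healthy group, the ratio of pooled CPM was 3074 for Winnie-Prolapse over C57BL/6 (95% interval 1052 to 14909) and 54.4 for Winnie over C57BL/6 (18.3 to 267). Without Winnie-Prolapse library 4 the former was 1458 (499 to 7075), and without Winnie library 2 the latter was 16.6 (5.29 to 83.7), while C57BL/6 library 3 holds the whole reference count. These exact intervals cover counting error only and not the spread between mice. The level in Winnie-Prolapse was 0.787 to 168 CPM (median 9.97), highest in library 4.

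The secondary granule genes did not move as a unit. Ltf, which encodes the iron-binding protein lactoferrin, was at 0.109 to 0.581 CPM in C57BL/6 (median 0.359), 0.405 to 28.4 CPM in Winnie (median 2.43) and 12.0 to 1123 CPM in Winnie-Prolapse (median 97.7). Its highest value was in Winnie-Prolapse library 6, the library with milk transcripts, which held 59.6% of the summed Ltf CPM of its group. The group mean of 269 ± 398 CPM (SD, n = 7) became 127 ± 140 CPM (SD, n = 6) without it. Every one of the other 6 libraries still exceeded all C57BL/6 libraries, with 282, 97.7 and 322 CPM in libraries 2, 4 and 7, where milk markers summed to 3.46, 4.93 and 5.81 CPM. Those 3 libraries had the highest squamous sums of the group, 2944, 2390 and 3589 CPM, and the part of either tissue in the Ltf level was not tested.

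Ngp, a cathelicidin-related protein of the secondary granule, was high in few libraries. In Winnie-Prolapse its counts were 7, 4, 7, 2032, 356, 285 and 17 in libraries 1 to 7, so that libraries 4, 5 and 6 stood at 67.2, 11.6 and 11.5 CPM and the other 4 at 0.129 to 0.625 CPM. Winnie library 3 had 93 counts (3.59 CPM) where the other 6 Winnie libraries had 0 to 4, and C57BL/6 had 0 to 7. Only 4 of 7 Winnie-Prolapse libraries exceeded the highest C57BL/6 library, and the groups overlapped. Camp, the antimicrobial cathelicidin of the same granule, had 0 to 7 counts in Winnie-Prolapse and 1 to 5 in C57BL/6, and its one higher value was 16 counts (0.617 CPM) in Winnie library 3. The ratio of pooled Camp CPM, Winnie-Prolapse over C57BL/6, was 0.897 (95% interval 0.421 to 1.89, counting error only).

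The primary granule genes were barely detected in any group. Mpo, the peroxidase that makes hypochlorous acid, had 0 to 4 counts in C57BL/6, 0 to 2 in Winnie-Prolapse and 0 in 5 of 7 Winnie libraries, with 9 counts (0.347 CPM) in Winnie library 3. Elane, the serine protease neutrophil elastase, had 1 count among all 8 C57BL/6 libraries, 0 to 5 in Winnie-Prolapse and 4 in Winnie library 3. The ratio of pooled CPM, Winnie-Prolapse over C57BL/6, was 1.08 for Mpo (9 counts in each group, 95% interval 0.379 to 3.06) and 10.8 for Elane (10 counts against 1, 95% interval 1.53 to 467), with counting error only. A library with 0 counts allows a level of up to 0.0825 to 0.121 CPM. Winnie library 3 thus held the highest Winnie value of Mpo, Elane, Camp and Ngp, whereas Winnie library 2 held the highest Winnie value of S100a8, S100a9, Ltf, Csf3r, Trem1 and Retnlg.

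**Figure D2:**
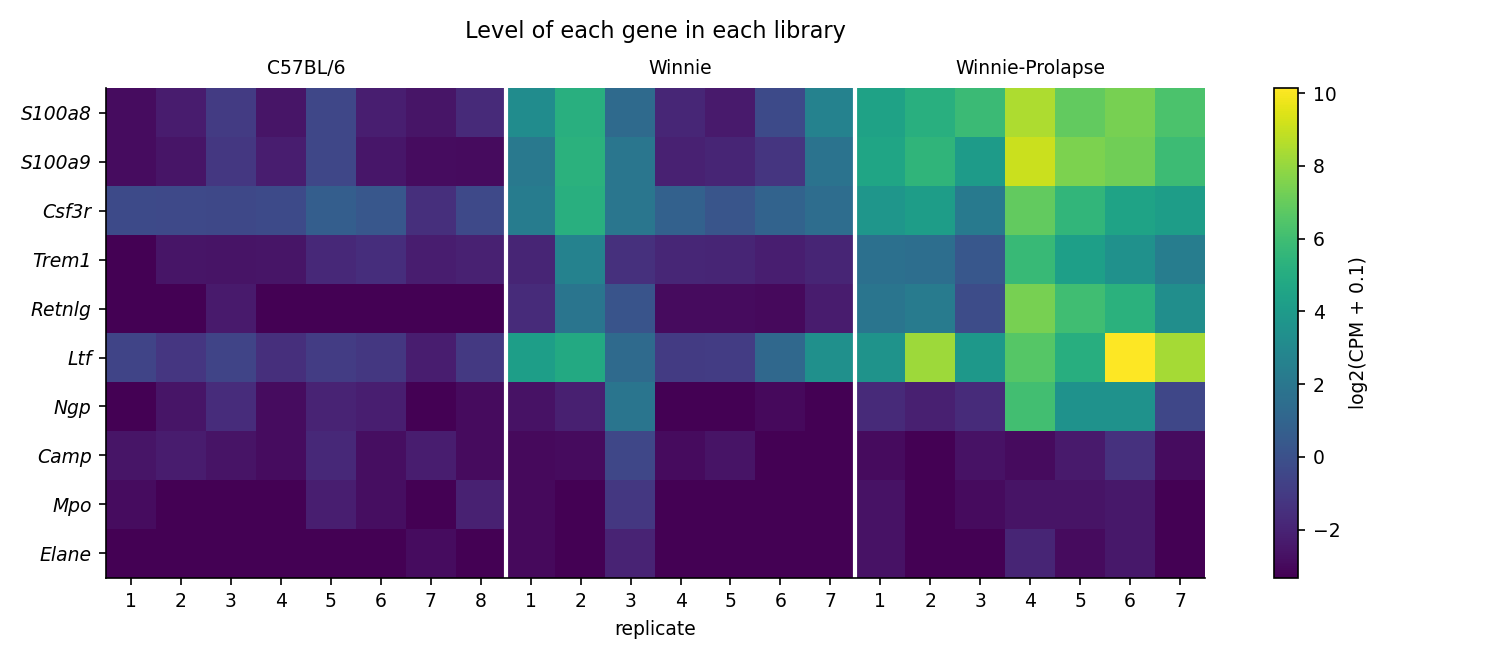
Heat map of log2(CPM + 0.1) for the 10 genes (rows) in the 22 libraries (columns, by group and replicate). Winnie library 2 is bright for calprotectin, Ltf and the receptors, Winnie library 3 is the only one raised for Mpo, Camp and Ngp together, and Winnie-Prolapse library 4 has the highest value of S100a8, S100a9, Ngp, Csf3r, Trem1 and Retnlg.

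Levels were compared between genes per kilobase of exon. By the median CPM per kilobase in Winnie-Prolapse, S100a9 (116) and S100a8 (114) led, followed by Ltf (28.3), Retnlg (16.8), Csf3r (4.95), Trem1 (1.69), Ngp (0.512), Camp (0.0485), Elane (0.0332) and Mpo (0.0173). The means were 172 ± 167 for S100a8, 275 ± 349 for S100a9, 78.0 ± 115 for Ltf and 69.8 ± 102 CPM per kilobase for Retnlg (SD, n = 7). These SDs are spreads between libraries and do not measure a difference between 2 genes of the same libraries. Within libraries, the ratio of S100a8 to S100a9 per kilobase ran from 0.504 to 2.60, with a median of 0.679. Each mean rested on its highest library: without library 6 that of Ltf was 36.8 ± 40.4, and without library 4 that of Retnlg was 34.2 ± 43.0 and that of S100a9 151 ± 130 (SD, n = 6). In C57BL/6 Csf3r was highest, at a median of 0.196 CPM per kilobase, with S100a8 at 0.159, S100a9 at 0.141 and Ltf at 0.104. The median counts of S100a8 and S100a9 there were 3 and 2, at or below the smallest readable level, so their ranks are not read.

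The balance between these genes changed from one inflamed library to the next. For each S100a9 count there were 0.126, 0.0658 and 0.0769 Ngp counts in Winnie-Prolapse libraries 4, 5 and 6, but 0.00289 to 0.0127 in libraries 1, 2, 3 and 7. Winnie library 3 had 0.939 Ngp counts for each S100a9 count. The ratio of Ltf to S100a9 counts was 6.29, 7.52 and 5.32 in Winnie-Prolapse libraries 2, 6 and 7 and 0.184 to 0.848 in the other 4. Libraries rich in Ltf relative to S100a9 were, apart from library 6, not the ones rich in Ngp. The ratio of Retnlg to Trem1 counts ran from 0.684 to 3.49 in Winnie-Prolapse.

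**Figure D3:**
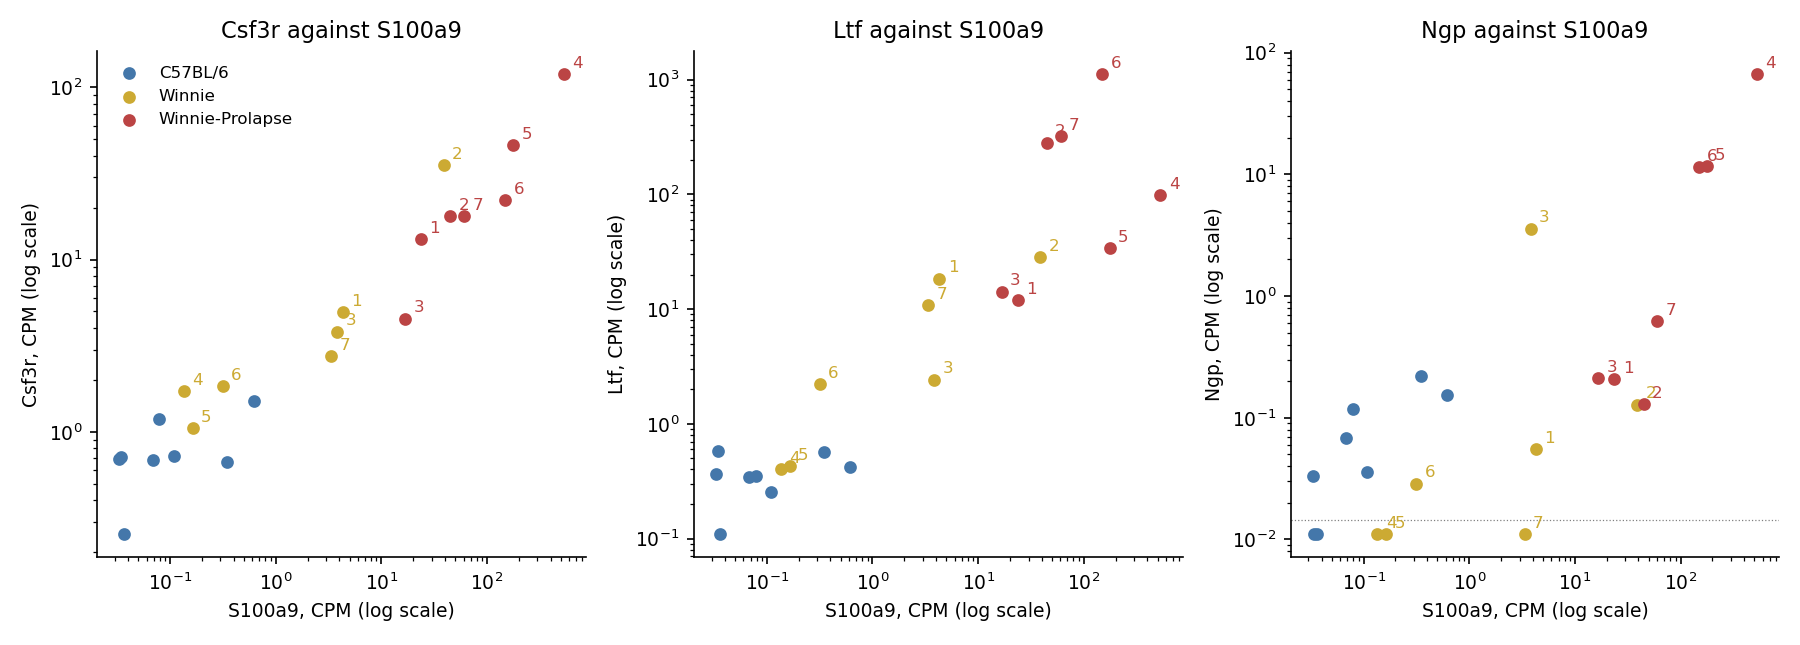
Csf3r, Ltf and Ngp (vertical axes, CPM, log scale) against S100a9 (horizontal axes, CPM, log scale), 1 point per library, with replicate numbers for Winnie and Winnie-Prolapse and with libraries at 0 counts of Ngp drawn below the dotted line. Ltf of Winnie-Prolapse libraries 2, 6 and 7 lies above the other libraries of similar S100a9, and Ngp divides the group, with libraries 4, 5 and 6 at 11.5 to 67.2 CPM and the rest at 0.625 CPM or lower.

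The comparison of Winnie-Prolapse with C57BL/6 asks what differs in the older Winnie mice with prolapse. After the filter on low counts 6 of the 10 genes could be tested (Ngp, Camp, Mpo and Elane were removed), and they are described by their fitted size. The log2 fold change ± SE was 9.25 ± 0.73 for S100a8, 9.78 ± 0.93 for S100a9, 9.68 ± 1.14 for Ltf, 5.45 ± 0.60 for Csf3r, 6.97 ± 0.86 for Trem1 and 11.23 ± 1.41 for Retnlg, whose fitted value rests on 3 healthy counts. The 6 were within the limits of the study, an adjusted p below 0.001 and a change of at least 1.5-fold, which follows from their choice on this contrast, and all but Csf3r passed the filter through the Winnie-Prolapse group: in C57BL/6 no library reached 10 counts of Trem1 or Retnlg, 2 of 8 did for S100a8 and S100a9, and 5 of 8 did for Ltf. Over all 17397 genes tested 9.84% were called higher at these limits, 16.7% were at an adjusted p below 0.05 and 6.5% had every Winnie-Prolapse library above every C57BL/6 library (as in all 6). Without library 6, the fold change of Ltf was 8.40. Without library 4, that of Retnlg was 10.31, S100a9 9.02, Csf3r 4.76 and Trem1 6.11, and without C57BL/6 library 5, that of S100a9 was 10.41. Without C57BL/6 library 3, which holds all healthy Retnlg counts, 5 of the 6 were called and Retnlg, at 13.22, was the one lost. With no filter on low counts Ngp was also called, at 7.29 ± 1.37, while Camp (0.02 ± 0.74), Mpo (0.18 ± 0.80) and Elane (2.63 ± 0.93) were not, with Elane inside the wider limit of 0.05.

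The comparison of Winnie with C57BL/6, both aged 14 weeks, asks what differs in Winnie mice not labelled with a prolapse. Of the 3 genes that passed the filter, S100a8 was higher by 5.28 ± 1.08 on the log2 scale (± SE), Ltf by 4.63 ± 0.83 and Csf3r by 3.23 ± 0.69. The genes were chosen with the values of all 3 groups known, so their calls here are also a description: none was within the limits of the study in edgeR (0.0868% of 17289 genes were called higher), and all 3 were within an adjusted p of 0.05 with the same fold limit (7.42% of genes were). DESeq2 called 4 of the 10 genes at the limits of the study, S100a8, S100a9, Ltf and Csf3r, beside 1258 of 19919 genes in either direction. Each of the 3 overlapped between the groups (0.463% of genes had every Winnie library above every C57BL/6 library), since Winnie libraries 4 and 5 lay within the healthy range of S100a8 and Ltf, and library 5 also within that of Csf3r. Without library 2 the fold change of Csf3r was 1.84, that of S100a8 4.03 and that of Ltf 4.04. This library also had the highest squamous sum of its group, 61.4 CPM against 3.97 to 5.99 CPM in the other 6 Winnie libraries, and the part of squamous tissue in its values was not tested. Without Winnie library 5, 2 of the genes were within the limits of the study, beside 677 of 17413 genes in either direction.

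The comparison of Winnie-Prolapse with Winnie asks how the older mice with prolapse differ from the younger Winnie mice. The labels give no score of severity. The log2 fold change (± SE) of the 6 genes tested was 3.97 ± 1.05 for S100a8, 4.32 ± 1.17 for S100a9, 5.06 ± 1.26 for Ltf, 2.22 ± 0.82 for Csf3r, 3.73 ± 1.09 for Trem1 and 5.81 ± 1.29 for Retnlg. These sizes moved with single libraries: without Winnie library 2 they were 5.23 for S100a8, 6.12 for S100a9, 5.65 for Ltf, 3.61 for Csf3r, 6.22 for Trem1 and 7.44 for Retnlg. Without Winnie-Prolapse library 4 they were 3.48 for S100a8, 3.55 for S100a9, 1.53 for Csf3r, 2.85 for Trem1 and 4.89 for Retnlg, and without library 6 that of Ltf was 3.77. S100a8, S100a9, Trem1 and Retnlg passed the filter through the Winnie-Prolapse group, since some Winnie libraries held under 10 counts of each. As a description again, no gene of the 10 was within the limits of the study in edgeR, and neither was any of the 17041 genes tested (0% called higher). Within an adjusted p of 0.05 were 5 of the 6 (all but Csf3r), as were 4.27% of all genes in the same direction, and DESeq2 called Ltf and Retnlg at the limits of the study, beside 678 of 19485 genes in either direction. The groups overlapped in all 6 (0.411% of all genes had every Winnie-Prolapse library above every Winnie library), with Winnie library 2 inside the range of Winnie-Prolapse for each of them, library 1 also for Ltf and Csf3r, and library 3 also for Retnlg. The count of 5 changed with single libraries, and so did the share of all genes. It was 1 without Winnie library 3, 4, 5, 6 or 7 or Winnie-Prolapse library 6 (1.58 to 2.61% of all genes were higher at the same limit), 2 without Winnie-Prolapse library 4 or 5 (1.88 and 2.16%), 3 without Winnie library 1 (3.87%) and 6 without Winnie library 2 (6.45%). It was 0 without Winnie-Prolapse libraries 4 and 6 together (0.259%), an alternative chosen after seeing the data. It was 4 with sex as a covariate (Ltf was lost, 3.23% of all genes), 4 without TMM factors or without the filter (Trem1 was lost, 3.54 and 3.26%), and 6 with DESeq2 or all 3 groups in 1 fit (8.29 and 6.06%). The 3 comparisons share their groups and are not independent of each other.

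**Figure D4:**
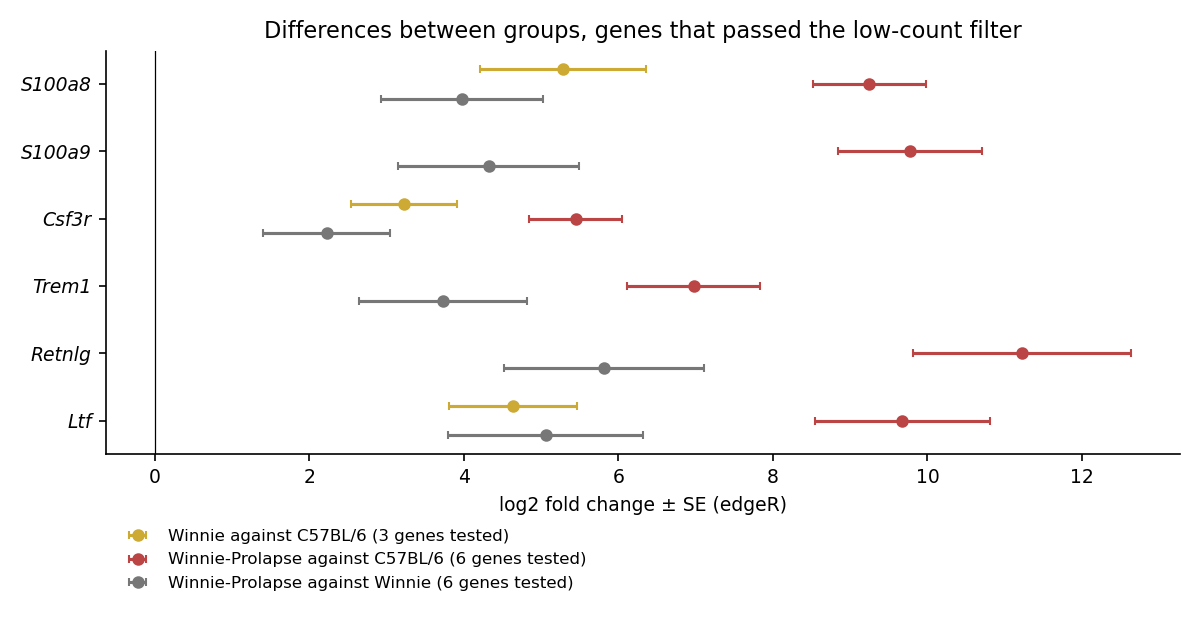
Log2 fold change (horizontal axis) with its SE of each gene that passed the filter in the 3 group comparisons. In Winnie-Prolapse against C57BL/6 the 6 genes lie between 5.45 and 11.23, in Winnie against C57BL/6 the 3 genes lie between 3.23 and 5.28, and in Winnie-Prolapse against Winnie the 6 genes lie between 2.22 and 5.81.

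Sex was not used to choose the genes, and the difference between females and males could be tested. With group as a covariate over all 22 libraries, none of the 7 genes that passed the filter differed by sex in edgeR's quasi-likelihood test (smallest Benjamini-Hochberg adjusted p = 0.961, with 0 of 7 at an unadjusted p below 0.05), while 0.0793% of 18911 genes did at an adjusted p below 0.05. DESeq2 called none of them either. The log2 difference, female minus male, was -1.46 ± 0.88 for S100a9, -0.94 ± 0.58 for Csf3r and 0.15 ± 0.97 for Ltf (± SE), so that a moderate difference is within the error. Within Winnie the 3 males stood above all 4 females in S100a9 (3.82 to 38.9 against 0.135 to 3.35 CPM), Csf3r (3.82 to 35.4 against 1.05 to 2.75 CPM) and Retnlg (0.220 to 3.72 against 0.0288 to 0.1004 CPM). In Ngp the 3 males had 2 to 93 counts and the 4 females 0 to 1. Of 21479 genes with at least 10 counts in Winnie, 12.9% had all 3 males above all 4 females, so nothing is read from these cases. The Winnie sexes overlapped in S100a8, Ltf and Trem1: female library 7 exceeded male library 3 in S100a8 (6.06 against 2.39 CPM) and Ltf (10.8 against 2.43 CPM), and female library 4 exceeded male library 1 in Trem1 (0.169 against 0.165 CPM). In Winnie-Prolapse the sexes overlapped, with S100a9 at 154 ± 252 CPM in 4 males and 129 ± 60.8 CPM in 3 females (SD). The test of whether the change with group differed by sex called none of the genes in edgeR (0% of all genes, smallest adjusted p = 0.346, for Ltf). At an unadjusted p below 0.05 there were 3, Ltf (0.0248), Csf3r (0.0346) and Trem1 (0.0377), beside 2410 of all 18911 genes. Without Winnie-Prolapse library 4 the interaction was called for Retnlg and Ngp (edgeR adjusted p = 0.0406 and 0.0422), beside 84 of all 18761 genes. DESeq2 was run for the interaction on all 22 libraries only, and there it called none of the 10 genes.

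Other genes of the neutrophil were read from a list of 34 that holds none of the 10. This list and those of ligands and of relatives below were chosen with earlier results of these data known. Their counts and p-values in the group comparisons are therefore a description. Genes with few C57BL/6 counts could pass the filter only through the Winnie-Prolapse group, where their counts were higher. In Winnie-Prolapse against C57BL/6, 22 of the 34 passed the filter, 20 were higher, none was lower and 2 did not pass the limits, with a median log2 fold change of 4.54 against -0.01 over all genes tested. The share of all genes called higher was 9.84%. In 16 of the 22 every Winnie-Prolapse library was above every C57BL/6 library, as in 6.5% of all genes. All 9 tested genes of the secondary and tertiary granules were higher, as were 6 of 8 surface receptors and all 5 cytosolic and nuclear genes, whereas none of the 3 primary granule genes had enough counts to test. The library values of Prtn3 and Ctsg, proteases of the primary granule, were 2 to 10 and at most 3 counts in Winnie-Prolapse (both named after their values were seen). Without Winnie-Prolapse libraries 4 and 6, 17 were called, with 7.29% of all genes called higher.

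Lcn2, the siderophore-binding protein of secondary granules that the colon epithelium also makes, was at 1.03 ± 0.442 CPM in C57BL/6 and at 223 ± 363 CPM in Winnie-Prolapse, and rose by 7.96 ± 1.002 on the log2 scale (± SE, edgeR adjusted p = 1.44e-05). Winnie-Prolapse library 6 held 1015 CPM of it, and the mean of the others was 90.8 ± 109.7 CPM (SD, n = 6). Pglyrp1, a peptidoglycan-binding granule protein, rose by 1.67 ± 0.18 from 223 ± 36.1 CPM (edgeR adjusted p = 4.47e-06). S100a9 was at most 0.617 CPM in C57BL/6, and the part of other cells in the Pglyrp1 level was not tested. Hp, the haemoglobin scavenger haptoglobin, rose by 4.57 ± 0.67 (edgeR adjusted p = 5.66e-05). Among the receptors, the lectin Clec4e (8.12 ± 0.84), the formyl peptide receptor Fpr2 (6.36 ± 0.70), the decoy interleukin-1 receptor Il1r2 (5.45 ± 0.58) and the complement receptor C5ar1 (2.32 ± 0.39) rose. Of the cytosolic group, the histidine decarboxylase Hdc (6.39 ± 0.75), Ifitm6 (4.50 ± 0.74), Asprv1 (4.39 ± 0.82) and Mcemp1 (3.47 ± 0.67) rose.

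Cd177, a surface glycoprotein stored in secondary granules, was the one gene of the 34 called in Winnie against C57BL/6. It was at 49.96 ± 16.5 CPM in C57BL/6 (SD, n = 8), 415 ± 263 CPM in Winnie (SD, n = 7) and 550 ± 192 CPM in Winnie-Prolapse (SD, n = 7). The log2 fold change was 3.14 ± 0.36 in Winnie (edgeR adjusted p = 0.000514) and 3.56 ± 0.26 in Winnie-Prolapse (edgeR adjusted p = 8.40e-08). In C57BL/6, where Cd177 was at 49.96 CPM, S100a9 was at most 0.617 CPM. The part of cells other than neutrophils in the Cd177 level was not tested. Of the 34, 14 could be tested in Winnie, 6 were higher at an adjusted p below 0.05 (7.42% of all genes were) and DESeq2 called 7, beside 1258 of 19919 genes. The count of 1 became 0 in 11 of the 15 fits that each left out a library, those without C57BL/6 library 1, 2, 3, 4, 5, 6 or 8 or Winnie library 1, 2, 6 or 7, and 3 without Winnie library 5. Over all genes, the calls in either direction went from 16 of 17289 to between 0 and 6 in those 11 fits. They rose to 677 of 17413 without Winnie library 5. Winnie-Prolapse against Winnie gave 0 of 24 at the limits of the study in edgeR, 16 higher at an adjusted p below 0.05 (4.27% of all genes were), 22 at an unadjusted p below 0.05 (4743 of 17041 genes were, in either direction) and 18 in DESeq2 (678 of 19485 genes).

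The ligands and regulators of these genes were read from a list of 18. In Winnie-Prolapse against C57BL/6, 10 of 15 tested were higher (9.84% of all genes were) and none was lower. The chemokines that draw neutrophils through Cxcr2 rose together: Cxcl3 by 9.29 ± 0.92, Cxcl2 by 8.03 ± 0.92, Cxcl5 by 5.28 ± 0.64 and Cxcl1 by 4.3996 ± 0.64 on the log2 scale (± SE, edgeR adjusted p = 1.65e-06 to 5.41e-05). Csf3, the ligand of Csf3r, did not pass the filter. Its counts were at most 2 in any C57BL/6 library, 0 in 5 of 7 Winnie libraries with 78 in library 2, and 10, 27, 3, 570, 43, 109 and 26 in Winnie-Prolapse libraries 1 to 7 (named after its values were seen). Its highest libraries, Winnie 2 and Winnie-Prolapse 4, were also the highest of their groups in Csf3r.

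Among receptors and partners, Tlr4, which binds calprotectin, rose by 0.86 ± 0.16 (edgeR adjusted p = 0.000408) and Tyrobp, an adaptor that carries the signal of Trem1, by 2.10 ± 0.25 (edgeR adjusted p = 8.41e-06). Slpi, an inhibitor of neutrophil elastase, rose by 4.72 ± 0.31 (edgeR adjusted p = 3.28e-08), with 11.1 ± 4.59 CPM in C57BL/6 and 282 ± 114 CPM in Winnie-Prolapse (± SD), while Elane itself stayed near the floor. Ctsc, the protease that activates elastase, rose by 1.81 ± 0.16 (edgeR adjusted p = 5.08e-07). The transcription factors Cebpb (2.08 ± 0.26) and Spi1 (2.31 ± 0.34), the latter encoding PU.1, rose, and Cebpe, the factor for secondary granule genes, had 1 to 5 counts in each Winnie-Prolapse library (named after its values were seen). In Winnie against C57BL/6, 7 of 13 tested were higher at an adjusted p below 0.05 with the same fold limit (7.42% of all genes were), among them Slpi, whose level of 132 ± 101 CPM in Winnie (SD) did not reach the limits of the study (edgeR adjusted p = 0.00128).

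The relatives of the 10 genes by family were read from a list of 25. Of 19 tested in Winnie-Prolapse against C57BL/6, 6 were higher (9.84% of all genes were) and 1 was lower. In the S100 family 4 of 11 were higher, S100a11 (2.25 ± 0.20), S100a16 (1.42 ± 0.16), S100a14 (1.09 ± 0.20) and S100a10 (0.59 ± 0.12), and S100b, a marker of enteric glia named after its value was seen, fell by 2.19 on the log2 scale (SE 0.40, edgeR adjusted p = 0.000316). The resistin relatives of Retnlg, given here after their values were seen, did not pass the limits: Retn was at 0.34 ± 0.80, Retnla at -1.24 ± 0.81 and Retnlb at 1.90 ± 1.38 (edgeR adjusted p = 0.741, 0.212 and 0.257). The peroxidase Lpo, which lies next to Mpo, rose by 2.94 ± 0.61 (edgeR adjusted p = 0.000865) and Treml4, a relative of Trem1, by 2.29 ± 0.33 (edgeR adjusted p = 4.70e-05). Trf, the serum transferrin that is related to lactoferrin and was named after its values were seen, did not pass the limits (4.50 ± 1.02, edgeR adjusted p = 0.00183), and 88.6% of its summed CPM in Winnie-Prolapse came from library 6, the library with milk transcripts (1415 CPM against at most 43.5 CPM in the others).

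**Figure D5:**
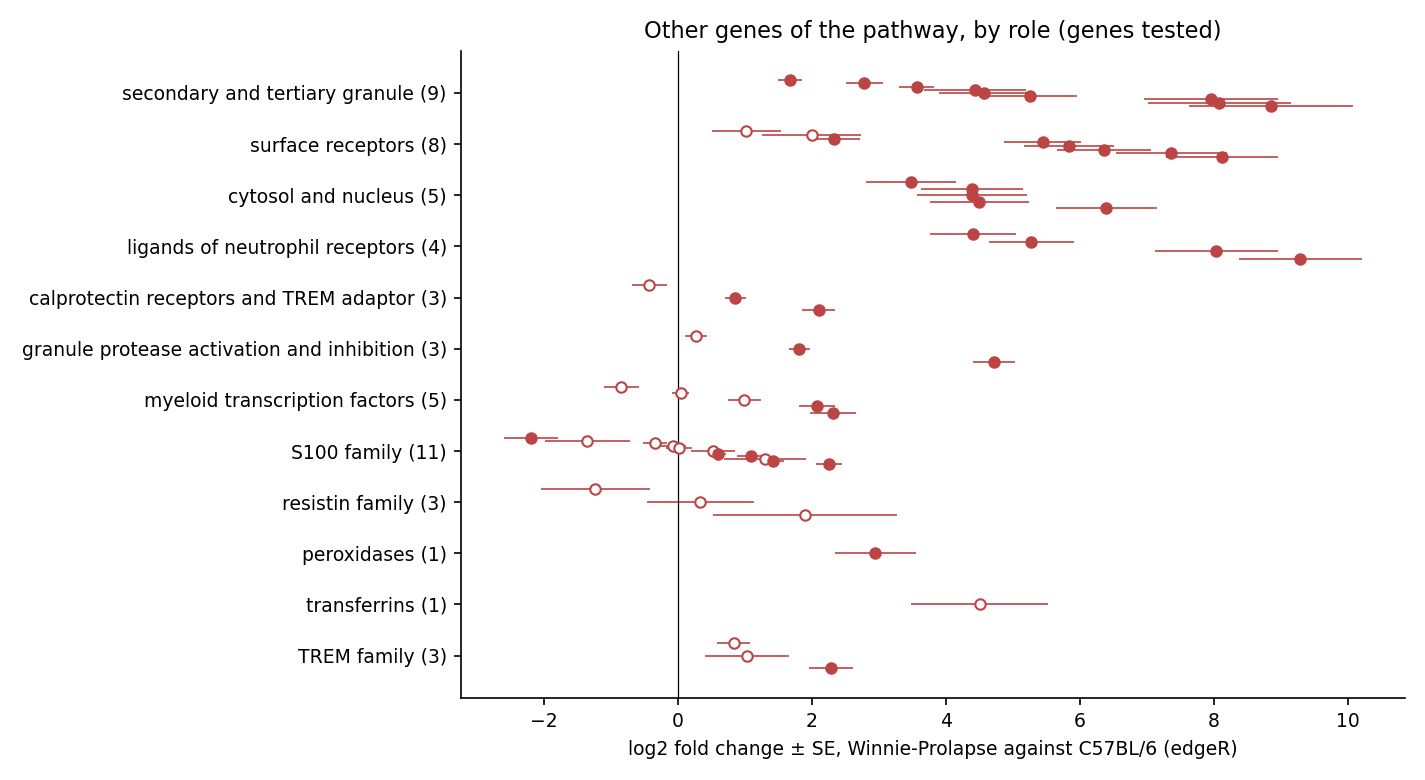
Log2 fold change, Winnie-Prolapse against C57BL/6, of the tested genes of the other 3 lists by role, 1 point per gene with its SE, filled where the gene passed the limits of the study. The secondary and tertiary granule genes and the chemokine ligands are all filled and above 0, and the S100 family holds the one filled point below 0.

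Markers of other cells also differed between the groups. The 11 macrophage and monocyte markers summed to 133 to 324 CPM in C57BL/6, 226 to 557 CPM in Winnie and 389 to 975 CPM in Winnie-Prolapse, and the leukocyte marker Ptprc was at 8.84 to 60.9, 19.8 to 55.4 and 24.6 to 94.7 CPM. Monocytes can also express S100a8, S100a9, Csf3r and Trem1, and their part in these values was not tested. The 5 eosinophil markers summed to 1.42 to 4.78, 2.41 to 3.68 and 2.86 to 4.66 CPM, with Ear1 at 0 in C57BL/6 and Epx, the peroxidase of eosinophils, at 0 in Winnie-Prolapse. The 6 erythroid markers, such as the globin genes, summed to a median of 177 CPM in C57BL/6 (17.0 to 491), 17.1 CPM in Winnie (6.36 to 57.5) and 549.9 CPM in Winnie-Prolapse (109 to 1511), so that all Winnie-Prolapse libraries stood above all Winnie libraries, and 5 of 6 were higher there at an adjusted p below 0.05 in edgeR. The 3 smooth muscle markers Myh11, Acta2 and Des summed to medians of 4781, 2052 and 1296 CPM, and all 3 were lower in Winnie-Prolapse than in C57BL/6 at the limits of the study (median log2 fold change -1.78). The part of blood and of the muscle layer in the values of the 10 genes was not tested.

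The genes most like a member in pattern were ranked by Pearson's r of log2 CPM over the 22 libraries, among 15484 genes, as a description in which the libraries of all 3 groups are pooled and so share the differences between groups. Closest to S100a9 were Cd47 (0.98), Trim10, Tnfaip2, Cxcl2, Sprr2i, Fpr1, Clec4e and Cxcl3 (0.97). Closest to Csf3r were Tnfaip2 (0.98), Tmem173, Cxcr2, Il18rap, Lilrb4, Gp49a, Cemip and Fxyd5 (0.97). Closest to Ltf were Trim10 (0.95), Lrg1, Lbp, Ms4a6d, Clca3a2, Osmr, Prss22 and Elovl5 (0.93). The counts of Elane were too sparse for such a ranking to be read.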

How the data were processed

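RNA from the distal colon of 22 mice was sequenced by the authors as stranded poly(A) libraries and aligned to GRCm38, and the deposited table holds raw counts per gene (46078 genes), made with featureCounts per the labels; the submitters' processing notes also name STAR and limma. The annotation release and the handling of reads with several matches are not given in the sources used here. Samples were grouped by the labels, replicates were numbered in accession order, and no 2 libraries agreed within sampling noise. Group comparisons, 2 groups per fit, used edgeR 4.0.16 in R 4.3.3 (TMM factors, filterByExpr, quasi-likelihood test, Benjamini-Hochberg adjustment over all genes tested), called at an adjusted p below 0.001 and at least 1.5-fold. Sex and its interaction with group were tested over all libraries at an adjusted p below 0.05. SEs are the fold change over the square root of F. CPM are counts scaled to the library total, per kilobase of merged exon where genes are compared. DESeq2 1.42.0, no TMM factors, no filter, sex as a covariate, all 3 groups in 1 fit, a limit of 0.05 and leaving out each library were alternatives.

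The members and gene lists were chosen with earlier results of these data known. Named from the other lists were genes called in a group comparison, at most 4 per role by mean CPM, and Cd177. Genes most like S100a9, Ltf, Csf3r and Elane were ranked among genes with a mean of at least 1 CPM, leaving out members. The scripts were tested on simulated data. P-values measure the spread between the libraries of each group, each labelled as its own sample.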

Additional observations from a re-analysis of the deposited data

Results flagged for a closer look

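In 20 of the 30 sets of libraries formed by 10 genes and 3 groups, the highest library stood apart from the rest of its group by Dixon's gap test, whose statistic is the gap to the next library divided by the range of the group. Chance alone flags about 1 in 20 sets of normally distributed values, but CPM are skewed and genes that share a library are not independent, so that rate does not hold here. In 2 of the 20, Elane and Retnlg in C57BL/6, all other libraries were at 0, which sets the statistic to 1. No explanation was tested.

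Winnie library 2 stood apart in S100a8 (0.746), S100a9 (0.893), Csf3r (0.886), Trem1 (0.975) and Retnlg (0.726). Winnie library 3 stood apart in the primary and secondary granule genes Mpo (0.921), Elane (0.822), Camp (0.894) and Ngp (0.964), on 4 to 93 counts. Winnie-Prolapse library 4 stood apart in S100a8 (0.571), S100a9 (0.689), Ngp (0.828), Csf3r (0.640), Trem1 (0.661) and Retnlg (0.621). Winnie-Prolapse library 6, with milk transcripts, stood apart in Ltf (0.721) and, on 7 counts, in Camp (0.652).

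In C57BL/6 the values that stood apart rested on 1 to 5 counts: Camp in library 5 (0.527), Elane in library 7 (1) and Retnlg in library 3 (1).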

How the results depend on the processing

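For the 6 genes that passed the filter, all 304 fold changes under the alternatives kept their direction; 296 kept their side of the limits, 7 passed them only under the alternative and 1 passed them no longer, that of Retnlg in Winnie-Prolapse against C57BL/6 without C57BL/6 library 3 (13.22). Of the other 4 genes, with no filter in edgeR, Ngp and Elane were positive in all 3 comparisons, and Mpo (0.18, 0.31 and -0.13) and Camp (0.02, 0.40 and -0.38) took both signs. The count in Winnie-Prolapse against C57BL/6 was 6 of the 10, 7 with DESeq2 or with no filter, and 5 to 6 when each library was left out, while the other neutrophil genes gave 20, 28 with DESeq2, and 18 to 23. In Winnie against C57BL/6, 0 of the 10 genes and 1 other neutrophil gene were called. DESeq2 called 4 and 7, an adjusted p below 0.05 gave 3 and 6, and leaving out each library gave 0 to 2 and 0 to 3. In Winnie-Prolapse against Winnie the count was 0 for both; DESeq2 called 2 and 18, and an adjusted p below 0.05 gave 5 and 16. The interaction of sex and group was called for 0 of the genes and for 0 to 2 when each library was left out (2 without Winnie-Prolapse library 4). The cause of these shifts was not tested. Over all genes, Winnie against C57BL/6 gave 16 calls in edgeR, 1258 in DESeq2, 68 with no filter, 199 with all 3 groups in 1 fit, and 0 to 677 when each library was left out; Winnie-Prolapse against C57BL/6 gave 3186, and 5043 in DESeq2; Winnie-Prolapse against Winnie gave 0, 678 in DESeq2 and 42 with all 3 groups in 1 fit. Depth limits Mpo, Elane and Camp, which stayed at 0 to 16 counts a library. No paired analysis was possible because the replicate numbers follow accession order and pair no libraries across groups.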

Other observations

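The stefin A genes of chromosome 16, cysteine protease inhibitors found in the cytosol of neutrophils, did not pass the filter on low counts in either comparison with C57BL/6 (chosen after their values were seen). Of the 5 on the list, Stfa2l1 alone could be tested in Winnie-Prolapse against Winnie (log2 fold change 3.70 ± 1.17, SE, edgeR adjusted p = 0.0610), and none of the 5 differed by sex (edgeR adjusted p = 0.961 for each, smallest unadjusted p = 0.0688). BC100530 had 0 counts in all 8 C57BL/6 libraries and in 6 of 7 Winnie libraries, with 12 counts in Winnie library 2, and reached 3264 counts (108 CPM) in Winnie-Prolapse library 4, with 0 in library 3. Stfa2l1 had 4 to 456 counts in Winnie-Prolapse and at most 53 in Winnie, again highest in libraries 4 and 2.

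Ly6g, whose product is the usual antibody target for mouse neutrophils, did not follow the granule genes (chosen after its values were seen). It was abundant in healthy distal colon, at 242 to 356 CPM in 7 of 8 C57BL/6 libraries, where S100a9 was at most 0.617 CPM, and at 302 to 872 CPM in Winnie-Prolapse. C57BL/6 library 7 stood apart at 3.80 CPM (105 counts) and was also the lowest of its group in Ltf and Csf3r. It had the highest smooth muscle and colon epithelium sums of its group, 7313 and 20821 CPM. Its macrophage and monocyte sum (133 CPM) and Ptprc level (8.84 CPM) were the lowest. The part of tissue make-up in its Ly6g value was not tested.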
